A study of Mus musculus with 6 samples.

Results

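Chemokine genes and the genes of their receptors were examined in mouse tumours with and without Kindlin-1. The set took every gene whose mouse symbol is Ccl, Cxcl, Ccr, Cxcr or Ackr followed by a digit, together with Cx3cl1, Cx3cr1, Xcl1 and Xcr1. It held 59 of the 37991 Ensembl genes listed, namely 36 ligands, 19 signalling receptors and 4 scavenger receptors. Ccl19-ps1, a pseudogene, and Ccr1l1, a relative of Ccr1, entered through their symbols. The count tables list no identifier matched to Ccl21a, Ccl21b or Ccl27b, so these genes were not analysed here.

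RNA was sequenced from mouse tumours of cutaneous squamous cell carcinoma, a cancer of skin keratinocytes. The wild-type (WT) group, with the genotype Kindlin-1 WT and 3 libraries, expressed Kindlin-1, an integrin-binding adaptor encoded by Fermt1, and the Null group (Kindlin-1 Null, 3 libraries) carried a knockout of it. The labels name the cell line only as cutaneous squamous cell carcinoma, and the strain, the age, the time of tumour growth, the clone and any treatment are not stated in the labels. WT libraries 1 and 2 carry mouse number 238 and library 3 carries 239, Null library 1 carries 240, and Null libraries 2 and 3 carry 242. Should equal numbers mean the same animal, there were 2 animals per group, and p-values rest on the spread among libraries alone, which may be technical. In a fit with mouse number as a random effect, libraries of equal number had a consensus correlation of 0.597, so their independence cannot be assumed.

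Chemokines are small secreted proteins that guide cells along gradients by binding G protein-coupled receptors on leukocytes and other cells. CC and CXC ligands differ in the spacing of their first cysteines, and many ligands share a receptor. Atypical receptors of the Ackr family bind chemokines without G protein signalling and internalise them, so they are called scavengers. In skin and its tumours, keratinocytes, fibroblasts, endothelium and macrophages make chemokines, and the receptors sit mostly on immune cells.

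Reads assigned to genes ranged from 161711 in WT library 2 to 31487255 in Null library 2. A floor of 3 reads therefore stood between 0.0953 and 18.6 CPM, the read count divided by library size on one common scale. These floors cover counting error only, while the SDs and SEs given below also hold the spread among libraries. Fermt1 had 16, 2 and 1040 reads in WT 1 to 3 and 0, 2 and 2 in Null 1 to 3. In CPM these were 12.5, 12.3 and 64.9 in WT and 0, 0.0634 and 0.393 in Null libraries. The value of WT library 2 rests on 2 reads, under its floor of 18.6 CPM. Defining markers of keratinocytes were low in these tumours, with Krt5 at 1.41 ± 2.17 CPM in WT and 0.184 ± 0.198 CPM in Null tumours, and Krt14 at 36.2 ± 9.49 and 8.6 ± 3.03 CPM (SD, n = 3). Skeletal muscle markers summed to 499 to 1238 CPM in the WT libraries and to 30.9 to 88.3 CPM in the Null libraries, and all 7 of the list were lower in edgeR's quasi-likelihood test. Mast cell markers summed to 371 to 1038 CPM in WT and 1396 to 4634 CPM in Null libraries, with 4 of 6 higher, but 0 of these 4 calls was kept without WT library 2, WT library 3, Null library 1 or Null library 3. Of the blood endothelial (6 tested) and B cell markers (2 of 5 tested) none passed. The part of these cells in the results was not tested. In bulk tumour RNA, fewer cells of a type and less RNA per cell cannot be told apart.

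Among chemokine and receptor genes, both scavenger receptors with enough reads rose in Null tumours, as did the receptors Cxcr3 and Ccr7 and the neutrophil-attracting ligands Cxcl1 and Cxcl5. The ligand Cxcl14 fell. Of 59 members 33 were tested, and 6 rose and 1 fell (edgeR's quasi-likelihood test, Benjamini-Hochberg adjusted p below 0.05 over all 11887 genes tested). The background over all tested genes was 5.79% called in either direction, 2.26% higher and 3.52% lower. A gene enters the test only with enough reads in at least 3 libraries, so a gene read in 1 group alone can enter through that group. Among the called genes, Ackr4, Cxcr3 and Cxcl1 did not meet this filter in the WT libraries alone. They entered with the Null libraries, where they were high, and the medians below include them. The median log2 fold change (Null minus WT) was 0.42 over the 33 tested members and 0.01 over all tested genes. By class it was 0.13 for 21 ligands, 0.83 for 10 receptors and 3.16 for 2 scavenger receptors. Of the 7 calls, none passed in all 6 fits that each left out 1 library, and the number of members called higher ranged from 0 without Null library 1 to 4 without WT library 1 or Null library 2. Without WT libraries 2 or 3 or Null library 3 it was 2 in each case.

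**Figure D1:**
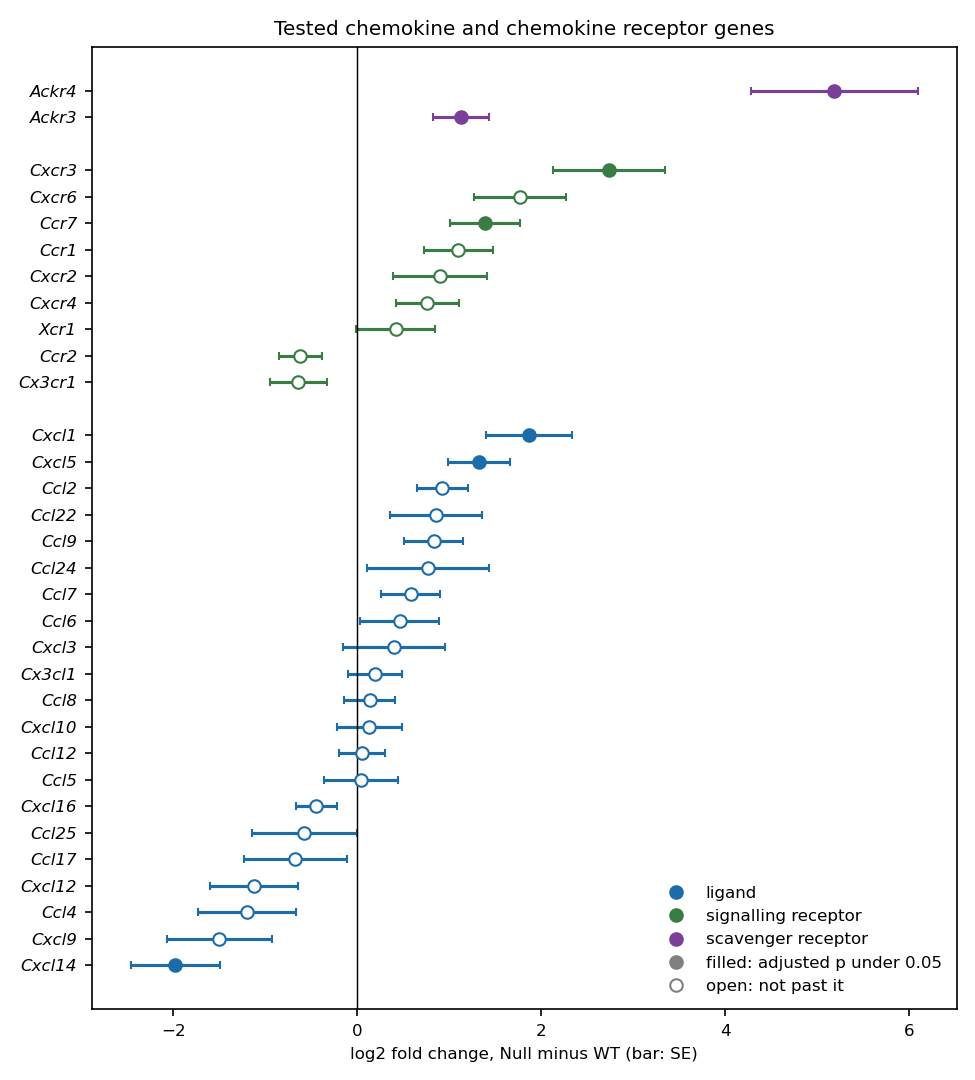
Log2 fold change (Null minus WT, horizontal axis) of tested members, grouped as ligands, signalling receptors and scavenger receptors, with bars for the standard error. Filled points mark the 7 genes past an adjusted p of 0.05, from Cxcl14 at -1.98 to Ackr4 at 5.19.

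Members took similar shares of each library. They made up 0.168%, 0.163% and 0.149% of assigned reads in WT 1 to 3 and 0.208%, 0.169% and 0.165% in Null 1 to 3. After TMM scaling, a correction for differences in RNA composition, ligands summed to 1143 ± 106 CPM in WT and 1341 ± 243 CPM in Null tumours (mean and SD of 3 libraries). Signalling receptors summed to 401 ± 17.6 and 416 ± 12.3 CPM. Scavenger receptors summed to 36.4 ± 7.28 and 99.4 ± 32.1 CPM, and their lowest Null library (73.9 CPM) lay above the highest WT library (43 CPM). The summed ligands and receptors overlapped between the groups.

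Ackr4, which takes up the CCR7 ligands CCL19 and CCL21 and the thymic chemokine CCL25, showed the largest rise of the tested members. It had 6, 1 and 3 reads in WT 1 to 3 and 46, 679 and 183 reads in Null 1 to 3. These were 4.68, 6.14 and 0.187 CPM in WT and 42.4, 21.5 and 36 CPM in Null tumours. The groups did not overlap, and WT library 3, the deepest of its group, was the lowest. The group means were 3.67 ± 3.1 and 33.3 ± 10.7 CPM (SD, n = 3), and the fitted log2 fold change was 5.19 (SE 0.91, edgeR adjusted p = 0.00683), which depends on the low value of WT library 3. Without that library the log2 fold change was 2.69 (adjusted p = 0.0273), and without WT library 1 it was 6.88 (0.000571). The call was lost without Null library 1 (edgeR, 0.0501) and with libraries of a shared mouse number summed (0.0857). DESeq2 gave 3.6 with an adjusted p of 0.0657. In the GENCODE annotation of GRCm38, 479 of the 5380 exon bases of Ackr4 (8.9%) lie opposite exons of Acad11, a mitochondrial acyl-CoA dehydrogenase gene, and the use of strand in counting is not stated. Acad11 stood at 12.8 CPM in WT and 21.4 CPM in Null tumours (log2 fold change 1.05, edgeR adjusted p = 0.087).

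Ackr4 is known from keratinocytes and lymphatic endothelium, and markers of both were read beside it. Of 5 lymphatic markers listed in the files 3 were tested and 1 rose, namely Lyve1, a hyaluronan receptor also found on macrophages (log2 fold change 2.48, edgeR adjusted p = 0.0016). The list summed to 24.3 to 38.3 CPM in WT and 48.4 to 78.2 CPM in Null tumours, but without Lyve1 to 15.5 to 24.6 and 1.84 to 7.35 CPM, so the higher sum was Lyve1 alone. Flt4, the receptor for lymphatic growth factors, stood at 7.25 and 2.92 CPM in WT and Null tumours (-0.66, edgeR adjusted p = 0.473), and Reln, too low for the test, at 3.67 and 0.197 CPM. Prox1, the defining transcription factor of lymphatic cells, was at 0 in all WT libraries and at 0, 0.127 and 0.197 CPM in Null 1 to 3. Pdpn, the membrane glycoprotein podoplanin, stood at 10.5 CPM in WT and 1.61 CPM in Null tumours (-2.29, adjusted p = 0.051). Keratinocyte markers summed to 52.1 to 79.9 CPM in WT and 39.7 to 47.9 CPM in Null tumours. Krt14, at 36.2 and 8.6 CPM, was the largest part of the WT sum. Trp63, at 15 and 22.9 CPM (0.53, edgeR adjusted p = 0.461), and Cdh1, at 4.18 and 5.5 CPM (0.76, 0.415), went the other way without passing. The median log2 fold change of the 4 tested keratinocyte markers was 0.28. The part of these cell types in the Ackr4 difference was not tested.

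Ackr3, formerly CXCR7, binds CXCL12 and CXCL11 and lowers free CXCL12. It stood at 31.2, 30.7 and 26.3 CPM in WT 1 to 3 and at 91.2, 50.2 and 51.4 CPM in Null 1 to 3. Every Null library lay above every WT library, and Null library 1 was the highest. Ackr3 rose 2.18-fold, from 29.4 ± 2.69 to 64.3 ± 23.3 CPM, mean ± SD of 3 libraries (log2 fold change 1.13, SE 0.31, edgeR adjusted p = 0.0494). The call was lost on leaving out any single library (log2 fold change 0.81 to 1.26, highest adjusted p = 0.191, without WT library 3), and in DESeq2 (0.0547). Ackr3 passed in 2 of 13 alternative fits. Its ligand Cxcl12, made by stromal fibroblasts, stood at 19.5, 18.4 and 9.3 CPM in WT and at 2.76, 5.58 and 9.25 CPM in Null tumours. Those Null values all lay below the WT values, by a small margin between WT library 3 and Null library 3, and the difference did not pass (log2 fold change -1.12, edgeR adjusted p = 0.166). Cxcr4, the signalling receptor for CXCL12, stood at 13.3 ± 4.43 and 19.8 ± 3.63 CPM with overlapping groups (0.76, adjusted p = 0.191).

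The other scavengers were too low for the test. Ackr1, the Duffy antigen of venules and red cells, had 2, 0 and 26 reads in WT 1 to 3 and 0, 50 and 6 in Null 1 to 3, with 84 reads in all. Ackr2, a scavenger of inflammatory CC chemokines, had 31 reads in all. Of its 8 WT reads 7 lay in library 3, and the Null libraries had 2, 19 and 2. Both genes overlapped between the groups in CPM.

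**Figure D2:**
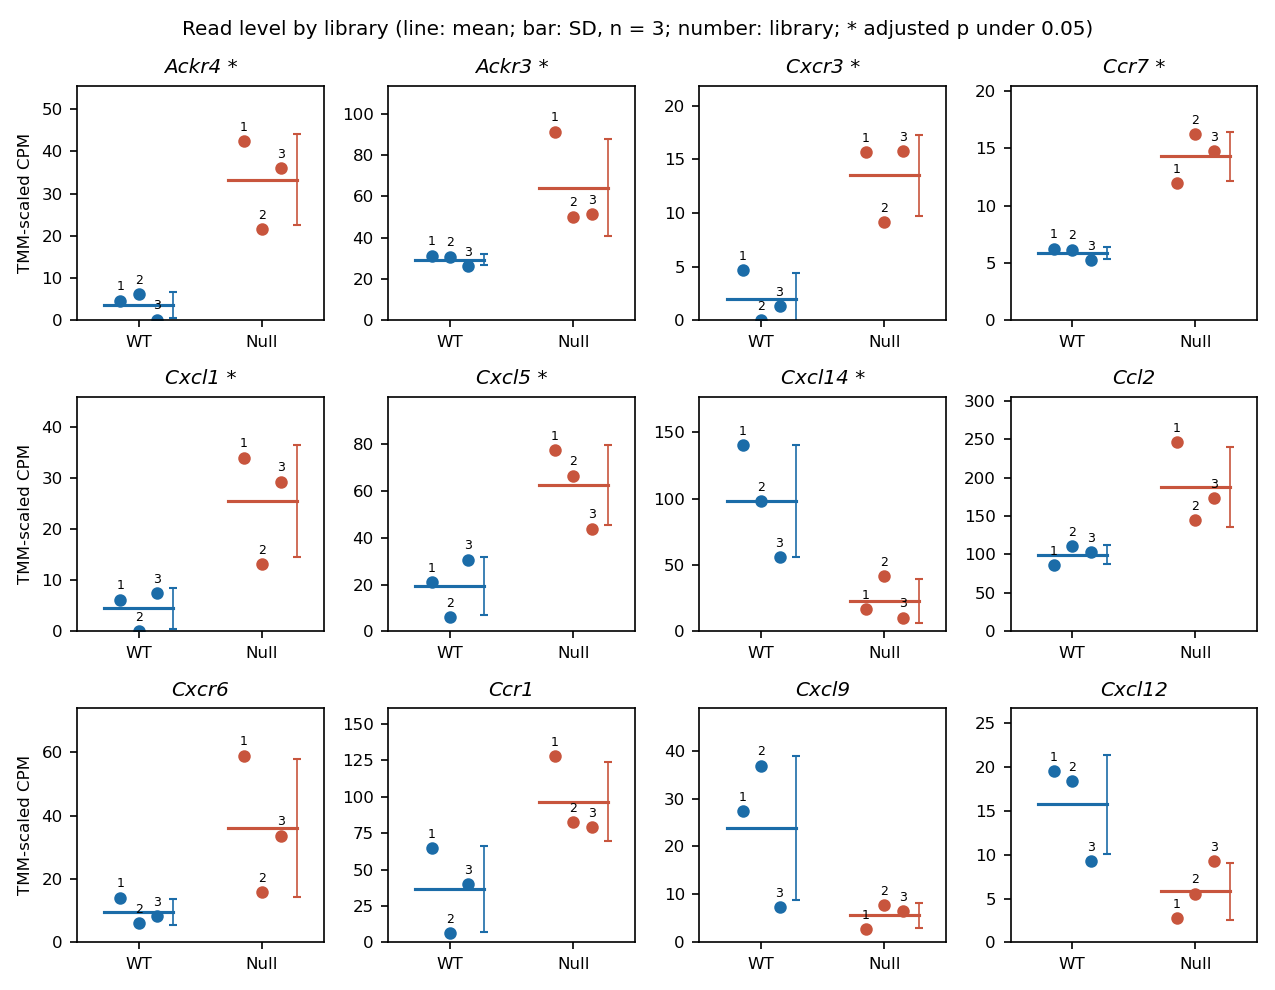
TMM-scaled CPM (vertical axes, from 0) of 12 members in each of the 3 WT and 3 Null libraries, with the mean as a line and the SD as a bar, and numbers for the libraries. The 7 genes with an asterisk passed the adjusted p of 0.05, and in each of them the Null values lie all above or all below the WT values. For Cxcl1, Cxcr3 and Ccr7 the floor of WT library 2 (18.6 CPM) exceeds at least 1 Null value.

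Among signalling receptors, Cxcr3, carried by activated T cells and NK cells, rose from a low level. It had 6, 0 and 21 reads in WT 1 to 3 and 17, 289 and 80 in Null 1 to 3, or 4.68, 0 and 1.31 CPM against 15.7, 9.16 and 15.7 CPM. All Null values lay above the WT values, and the 0 of WT library 2 falls under that library's floor of 18.6 CPM, so its level there was not detectable at this depth. Cxcr3 rose from 2 ± 2.42 to 13.5 ± 3.78 CPM, mean ± SD of 3 libraries (log2 fold change 2.74, SE 0.6, edgeR adjusted p = 0.0227). The call was lost without WT library 3 (log2 fold change 1.65, edgeR adjusted p = 0.211), Null library 1 (0.0904) or Null library 3 (0.113), and without WT library 1 the log2 fold change was 3.34. DESeq2 also called it (0.0117), and the gene was not tested under a filter of 10 CPM in 3 libraries.

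The ligands of CXCR3, which interferon-gamma induces, did not pass the test. Cxcl9 stood at 27.3, 36.9 and 7.3 CPM in WT 1 to 3 and at 2.76, 7.73 and 6.49 CPM in Null 1 to 3. The groups overlapped through WT library 3, and the difference did not pass (log2 fold change -1.5, SE 0.57, edgeR adjusted p = 0.126), although it did without that library (-2.2, adjusted p = 0.0212). Cxcl10 stood at 10.8 ± 4.25 and 13.5 ± 2.93 CPM (0.13, adjusted p = 0.845). Cxcl11, annotated as a polymorphic pseudogene in the reference, had 39 reads in all, and 41.7% of its exon bases lie opposite a processed pseudogene. The summed CXCR3 ligands came to 36.2 ± 12.5 CPM in WT and 19.8 ± 5.99 CPM in Null tumours, with overlapping groups.

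Cxcr6, the receptor of tissue-resident T and NK cells for CXCL16, was also higher in the Null libraries but lay outside the threshold. It stood at 14.1, 6.14 and 8.24 CPM in WT 1 to 3 and at 59, 15.8 and 33.6 CPM in Null 1 to 3. The groups did not overlap, with Null library 2 close to WT library 1 (log2 fold change 1.77, SE 0.5, edgeR adjusted p = 0.0556). Cxcr6 had 1 read in WT library 2, under that library's floor of 18.6 CPM. It passed in 5 of 13 alternative fits, among them DESeq2 (0.0248), edgeR without Null library 2 (0.0105) and edgeR without WT library 1 (0.0496). Its ligand Cxcl16, a transmembrane chemokine of macrophages, stood at 132, 135 and 141 CPM in WT and at 95.8, 97.1 and 107 CPM in Null tumours. These values were tight within each group and did not overlap, and the log2 fold change of -0.45 (SE 0.23) did not pass (edgeR adjusted p = 0.235). Of the Cxcl16 exon bases 18.3% lie opposite Zmynd15, which stood at 26.7 and 15.8 CPM (adjusted p = 0.154).

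Markers of T and NK cells give the setting for both receptors. Of 10 markers 5 were tested and 1 rose, Prf1, which encodes perforin (log2 fold change 3.6, edgeR adjusted p = 0.00241). The list summed to 45.9 to 86 CPM in WT and 80.5 to 114 CPM in Null tumours, which overlap. Prf1 alone stood at 3.98 CPM in WT and 48.2 CPM in Null tumours, so the higher Null sums rest on it. Cd4 stood at 22.8 and 15.3 CPM (-0.17, edgeR adjusted p = 0.812) and Nkg7 at 9.58 and 10.7 CPM (0.42, 0.538). Genes of the T cell receptor complex were too low for the test. Cd3e stood at 0.26 CPM in WT and 0.0317 CPM in Null tumours, Cd3d at 2.94 and 1.65 CPM and Cd3g at 5.55 and 0.844 CPM. Trac had reads only in Null library 2 (0.0317 CPM). The NK receptor Ncr1 stood at 13.1 and 14.5 CPM (0.34, adjusted p = 0.602). Without WT library 3 the log2 fold change of Prf1 was 2.58. The part of these cells in the Cxcr3 and Cxcr6 values was not tested.

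Ccr7, which guides dendritic cells and lymphocytes into lymphatic vessels, stood at 6.25, 6.14 and 5.24 CPM in WT 1 to 3 and at 12, 16.2 and 14.8 CPM in Null 1 to 3. The reads were 8, 1 and 84 in WT and 13, 511 and 75 in Null 1 to 3. The WT values were close together, and the lowest Null library was above all of them. That of WT library 2 rests on 1 read, under its floor of 18.6 CPM, which exceeds every Null value, so its separation is not resolved. The log2 fold change was 1.39 (SE 0.38), and the edgeR adjusted p of 0.05 after rounding lay just inside the threshold. The call was lost on leaving out any single library (log2 fold change 1.23 to 1.48, highest adjusted p = 0.205, without WT library 3), with RLE in place of TMM scaling (0.0506), and in DESeq2 (0.137). Ccr7 passed in 2 of 13 alternative fits. Its ligand Ccl19 had 11 reads in all 6 libraries together, and 52% of its 50-base stretches also occur in other transcripts, so its count is uncertain. Of 8 dendritic cell markers, all tested and including the member Ccl22, 0 rose and 1 fell (Itgax, lost without WT library 3 at an edgeR adjusted p of 0.068). The list summed to 373 to 522 CPM in WT and 200 to 372 CPM in Null tumours. Fscn1, at 364 and 218 CPM (-0.7, edgeR adjusted p = 0.187), made up most of that sum. Flt3 (0.74), Clec9a (0.26), Cd209a (0.76) and Ccl22 (0.86) had positive log2 fold changes and the other markers negative ones, with a median of -0.04. The part of dendritic cells in the Ccr7 difference was not tested.

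The receptors with the highest read levels were those of monocytes and macrophages, and none of them passed. Cx3cr1, the fractalkine receptor, stood at 123, 154 and 144 CPM in WT 1 to 3 and at 47.9, 122 and 89.9 CPM in Null 1 to 3 (log2 fold change -0.64, SE 0.31, edgeR adjusted p = 0.217). Ccr2, the receptor of inflammatory monocytes, stood at 136, 92.2 and 123 CPM against 74.6, 82.1 and 79.1 CPM (-0.62, SE 0.24, adjusted p = 0.127). In both genes the Null libraries lay below the WT libraries, Cx3cr1 by under 1 CPM between WT library 1 and Null library 2. Ccr1, a receptor for several CC ligands on myeloid cells, stood at 64.8, 6.14 and 39.8 CPM in WT and at 128, 82.6 and 79.3 CPM in Null tumours. There the groups parted the other way, WT library 2 was far below its group, and the difference did not pass (1.1, SE 0.38, adjusted p = 0.0959) except without WT library 1 (1.49, adjusted p = 0.0455).

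Macrophage and monocyte markers, all 10 tested, included 0 calls in either direction, and their sum of 3052 to 5812 CPM in WT overlapped the 5554 to 7172 CPM of Null tumours. Per kilobase of exon, a scale on which different genes can be compared, Cx3cr1 led the receptors in WT at 31.1 CPM per kilobase, ahead of Ccr2 (17.3) and Ccr1 (13). In Null tumours Ccr1 led at 34.1, ahead of Cx3cr1 (19.2), Cxcr6 (18.7) and Ccr2 (11.6). Cxcr3 moved from 1.15 to 7.81 CPM per kilobase. These are group means of levels, and their order was not tested.

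**Figure D3:**
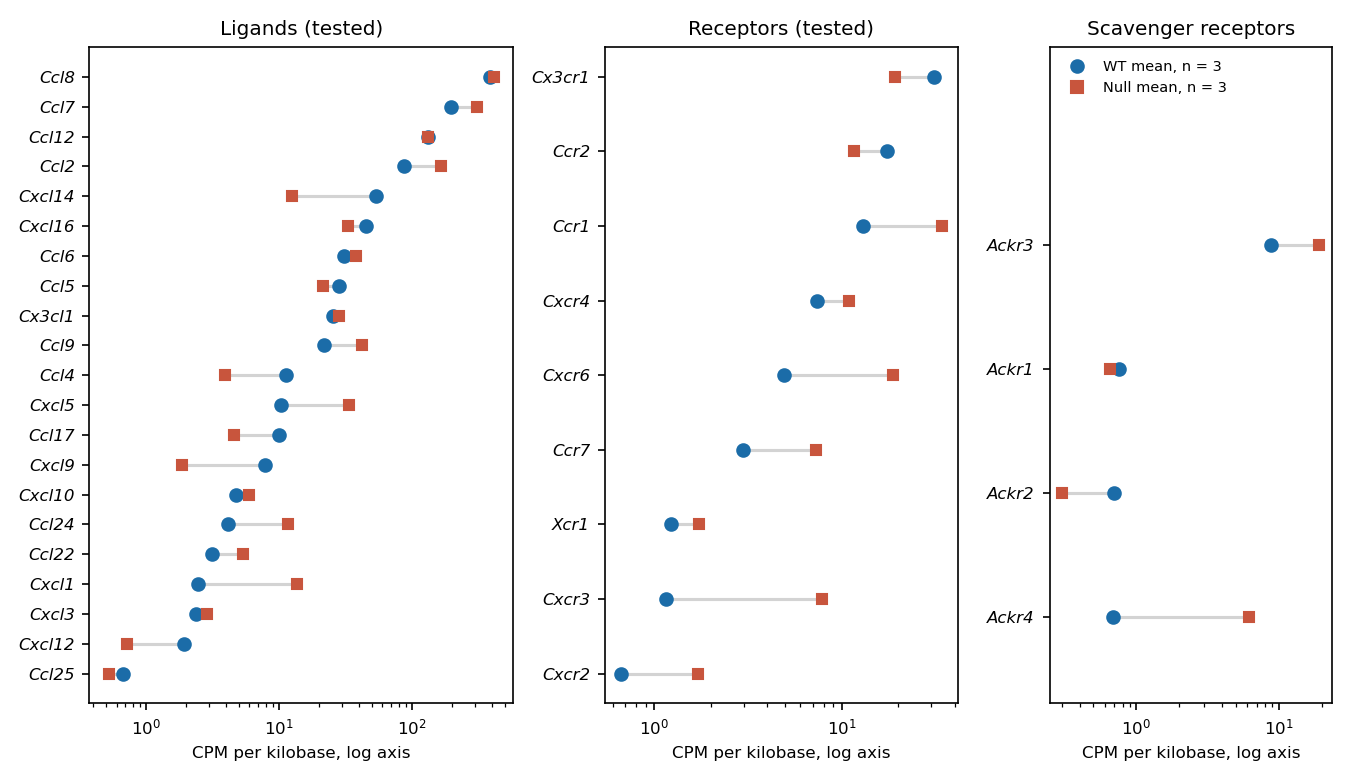
Mean CPM per kilobase of exon (horizontal log axes, 3 libraries per group) of tested ligands, tested signalling receptors and the 4 scavenger receptors in WT (circles) and Null tumours (squares). Ccl8 and Ccl7 head the ligands in both groups, while Cx3cr1 heads the receptors in WT and Ccr1 in Null tumours.

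The ligands of CXCR2, the receptor that draws neutrophils, included both ligands that rose. Cxcl1 had 8, 0 and 120 reads in WT 1 to 3 and 37, 417 and 149 in Null 1 to 3, or 6.25, 0 and 7.49 CPM against 34.1, 13.2 and 29.3 CPM. The groups did not overlap, and the 0 of WT library 2 lies under its floor of 18.6 CPM. Cxcl1 rose from 4.58 ± 4.01 to 25.5 ± 10.9 CPM, mean ± SD of 3 libraries (log2 fold change 1.86, SE 0.47, edgeR adjusted p = 0.0379). The call was lost without WT library 1 (0.0582), 2 (0.0507) or 3 (0.13) and without Null library 1 (0.144) or 3 (0.129), and held without Null library 2 (0.0119, all edgeR).

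Cxcl5, an epithelial and stromal ligand of the same receptor, stood at 21.1, 6.14 and 30.5 CPM in WT 1 to 3 and at 77.4, 66.4 and 43.9 CPM in Null 1 to 3. Each Null library was above each WT library. It rose 2.5-fold (log2 fold change 1.32, SE 0.34, edgeR adjusted p = 0.0391), a call lost without WT library 1 (0.0752) or 2 (0.0547) as well as without Null library 1 (0.16) or 2 (0.0818). With mouse number as a random effect neither Cxcl1 (limma-voom adjusted p = 0.217) nor Cxcl5 (0.0853) passed.

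Cxcl3 stood at 7.03, 12.3 and 5.68 CPM in WT and at 18.4, 6.43 and 5.31 CPM in Null tumours, overlapping widely (log2 fold change 0.4, edgeR adjusted p = 0.687). Cxcl2, a macrophage product, was too low for the test. It had 9 WT reads, all in library 3, and 6, 32 and 10 reads in Null 1 to 3. Its values of 0, 0 and 0.562 CPM in WT lay below the 5.53, 1.01 and 1.97 CPM of Null tumours, but the floors of WT libraries 1 and 2 (2.34 and 18.6 CPM) exceed the Null value of library 2. Cxcl2 and Cxcl3 share 5.84% and 4.29% of their 50-base stretches with other transcripts, chiefly with each other. Summed over Cxcl1, Cxcl2, Cxcl3 and Cxcl5, the CXCR2 ligands came to 32.3 ± 13 CPM in WT and 101 ± 30 CPM in Null tumours (mean and SD of 3 libraries). Cxcr2 itself stood at 3.12, 0 and 2.93 CPM and at 4.61, 5.52 and 5.51 CPM, and its log2 fold change of 0.9 did not pass (adjusted p = 0.287). The floor of WT library 2, 18.6 CPM, exceeds every Null value of Cxcr2, so a higher level is not resolved there.

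Of 6 neutrophil markers 3 were tested and 1 rose, S100a9 (log2 fold change 2.84, edgeR adjusted p = 0.00548, lost without WT library 3 at 0.0634). The list summed to 60 to 92.2 CPM in WT and 77.3 to 100 CPM in Null tumours, which overlap. Csf3r, the largest part of the sum, stood at 62.7 and 44.1 CPM (-0.43, edgeR adjusted p = 0.291). S100a8 stood at 7.02 and 16.4 CPM (2.14, edgeR adjusted p = 0.0641). Retnlg, too low for the test, was at 0 in all WT libraries and at 0.921, 0.317 and 0.984 CPM in Null 1 to 3. Mmp8, also too low, stood at 0.26 and 0.779 CPM. Ly6g, a defining neutrophil surface gene, had 0 reads in every library. The part of neutrophils in these ligand values was not tested.

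The members Cxcl5, Cxcl3, Cxcl15, Cxcl1 and Cxcl2 lie in this order in GRCm38. Of the members, Cxcl3 and Cxcl15 stand between the 2 genes that rose. Genes outside the symbol rule can lie within this run and were not listed. Promoter sequences from RefSeq (GRCm38.p6) were matched for 43 of the 59 members, and those of Cxcl1, Cxcl2 and Cxcl3 are shown because these neighbours share a receptor and a sequence feature while only Cxcl1 passed the test. Each line gives the 100 bases before the gene start, 5′ to 3′ on the + strand. Capitals mark the longest stretch that the 250 bases before the 3 starts have in common, GGGAATTTCCC, whose letters contain a form of the binding motif of NF-kB, the transcription factor of inflammatory signalling.
Cxcl1, chr5:90891145-90891244: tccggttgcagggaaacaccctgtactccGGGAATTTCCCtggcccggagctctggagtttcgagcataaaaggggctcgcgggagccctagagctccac
Cxcl2, chr5:90903799-90903898: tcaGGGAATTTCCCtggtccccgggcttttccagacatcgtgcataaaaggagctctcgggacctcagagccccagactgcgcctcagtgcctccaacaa
Cxcl3, chr5:90786001-90786100: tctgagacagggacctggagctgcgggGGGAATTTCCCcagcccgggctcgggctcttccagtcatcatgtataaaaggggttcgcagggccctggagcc

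The 11 shared bases begin 71, 97 and 73 bases before the start of Cxcl1, Cxcl2 and Cxcl3. Searched on both strands in the 250 bases before the start, they were found in 14 of all 32851 promoters, 0.0426%, and among the 47 member promoters only in the 3 from which they were taken. Cxcl3 and Cxcl1 both carry them, and only Cxcl1 passed the test. These are matches of letters and were not set against any binding data. Cxcl5 and Ccr7 have no entry in the table used.

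Cxcl14, a ligand made by resting keratinocytes and fibroblasts whose receptor is not settled, was the only member that fell. It stood at 141, 98.3 and 56.1 CPM in WT 1 to 3 and at 16.6, 41.7 and 10.2 CPM in Null 1 to 3. All Null values lay below the WT values, and the nearest were Null library 2 and WT library 3. Cxcl14 fell 3.94-fold, from 98.3 ± 42.2 to 22.9 ± 16.7 CPM, mean ± SD of 3 libraries (log2 fold change -1.98, SE 0.48, edgeR adjusted p = 0.0342). The call held without Null library 2 (log2 fold change -2.96, adjusted p = 0.00132) and was lost in each of the other 5 such fits, with the highest adjusted p without Null library 1 (0.149, edgeR). Without WT library 1 the log2 fold change was -1.43 (0.105). It was also lost with no filter on low counts (0.112), and under a random effect for mouse number (limma-voom, 0.453), and kept in DESeq2 (0.00125).

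In the same libraries, sums of fibroblast markers were 3691 to 5091 CPM in WT and 5056 to 6369 CPM in Null tumours, with 2 of 6 higher (Dcn, Lum) and 1 lower (Col1a2). Without Null library 1 or 3 only the call of Lum was kept, and without WT library 2 that of Dcn was lost. Keratinocyte markers, 4 of 7 tested, had 0 higher and 1 lower (Krt14). Adipocyte markers, 3 of 5 tested, had 0 higher and 2 lower (Cfd and Lpl, the latter lost without WT library 1 or Null libraries 1 or 3), and summed to 90.7 to 189 CPM in WT and 39.4 to 92.1 CPM in Null tumours. The part of these cells in the Cxcl14 difference was not tested.

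The most highly read ligands were Ccl8, Ccl7 and Ccl2, and none passed the test. Ccl8 was paired here with the receptor Ccr8, which had 0 reads. Ccl8 stood at 236, 221 and 133 CPM in WT 1 to 3 and at 220, 228 and 187 CPM in Null 1 to 3 (log2 fold change 0.13, edgeR adjusted p = 0.792). Ccl7 stood at 144, 117 and 210 CPM against 361, 188 and 187 CPM (0.58, adjusted p = 0.279). Both overlapped between the groups. Ccl2, the main ligand of CCR2, stood at 85.9, 111 and 103 CPM in WT and at 246, 145 and 174 CPM in Null tumours. Its groups did not overlap, and its fitted log2 difference of 0.93 (SE 0.27) lay just outside the threshold (edgeR adjusted p = 0.0628), passing in 1 of 13 alternatives (limma-voom with mouse number as a random effect, 0.046). Ccl12, the closest mouse relative of Ccl2 in receptor use, stood at 71.6 ± 12.8 and 71.6 ± 5.07 CPM (0.05, adjusted p = 0.919).

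Summed, the CCR2 ligands Ccl2, Ccl7 and Ccl12 came to 328 ± 35.7 CPM in WT and 505 ± 155 CPM in Null tumours (n = 3, SD), and every Null library lay above every WT library. Ccr2 values lay in the opposite order, as given above, and no test of either sum was made. Cx3cl1, the membrane-bound ligand of CX3CR1, stood at 131, 104 and 63.8 CPM and at 107, 96.2 and 130 CPM, with full overlap (0.19, adjusted p = 0.719).

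**Figure D4:**
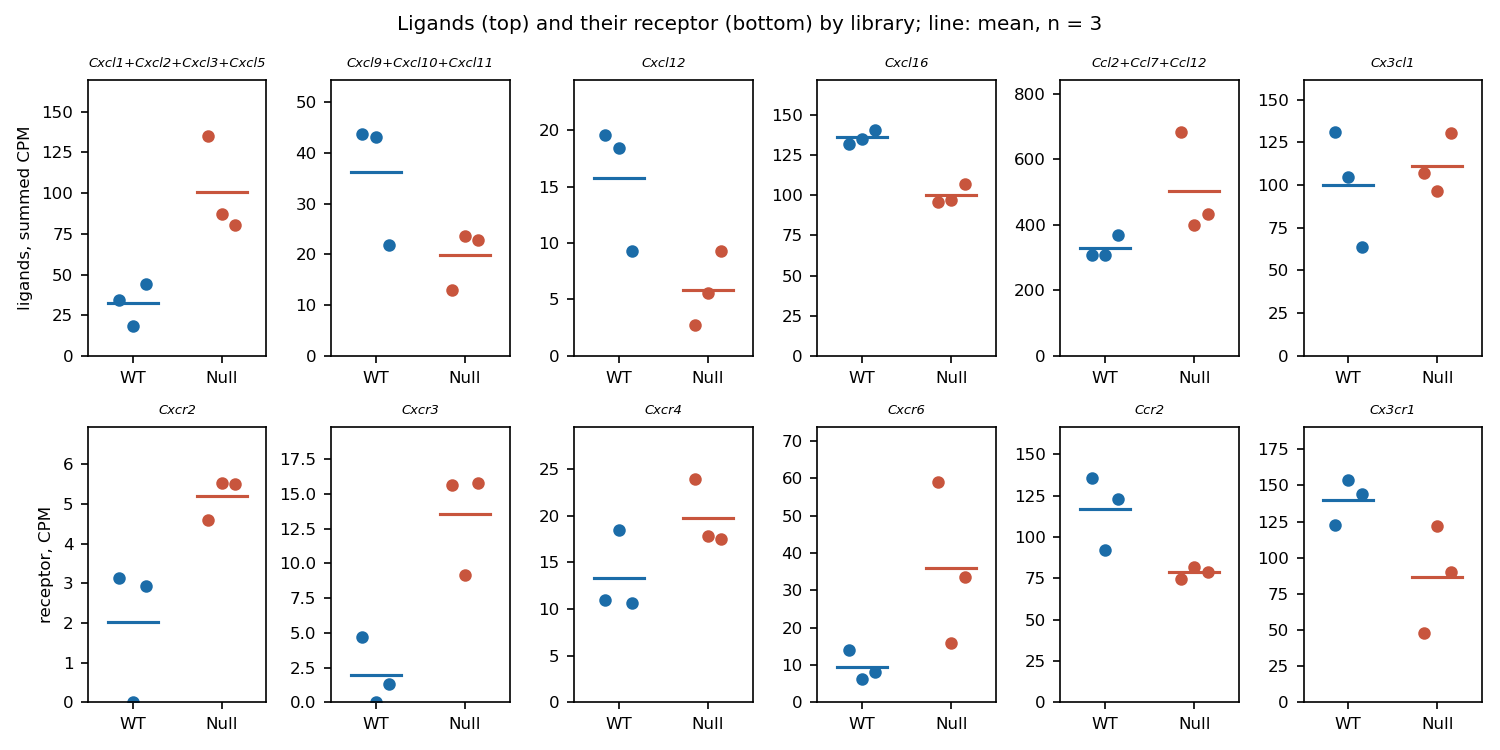
CPM (vertical axes, from 0) of ligands summed per receptor (top) and of the receptor itself (bottom) in the 3 WT and 3 Null libraries, with the group mean as a line. The summed CXCR2 ligands are higher in Null libraries. Cxcr2 values are also higher there, but the floor of WT library 2 (18.6 CPM) exceeds them and the gene did not pass. Cxcl12 and Cxcl16 are lower in Null libraries with Cxcr4 overlapping and Cxcr6 higher.

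Per kilobase of exon, Ccl8 was the highest ligand in both groups, at 385 and 414 CPM per kilobase in WT and Null tumours, followed by Ccl7 at 196 and 307. Ccl12 (133 in both) and Ccl2 (87.8 and 165) took the third and the fourth places in exchanged order. Cxcl14 was the fifth ligand in WT, at 53.8 CPM per kilobase, and stood at 12.5 in Null tumours, behind 11 others. Cxcl5 moved from 10.3 to 33.6 and Cxcl1 from 2.44 to 13.6 CPM per kilobase.

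The remaining tested ligands did not pass. Ccl9, a CCR1 ligand of myeloid cells, stood at 51.5, 49.1 and 98 CPM in WT 1 to 3 and at 178, 99.3 and 110 CPM in Null 1 to 3. Its groups did not overlap, but WT library 3 and Null library 2 nearly met (log2 fold change 0.83, edgeR adjusted p = 0.136). Ccl4, a ligand of activated lymphocytes and macrophages, stood at 4.68, 12.3 and 5.43 CPM against 2.76, 2.06 and 2.95 CPM (-1.2, adjusted p = 0.185), and rested on 178 reads in all. Ccl5 and Ccl6 stood at log2 fold changes of 0.04 and 0.46, and Ccl24, which draws eosinophils, at 0.77 with Null values from 2.95 to 26.7 CPM. The 2 CCR4 ligands went different ways, Ccl22 with 0.86 (adjusted p = 0.298) and Ccl17 with -0.67 (0.473), and Ccl25 stood at -0.58 (0.548). Among receptors Xcr1, which marks cross-presenting dendritic cells, stood at 5.45 ± 1.34 and 7.66 ± 1.56 CPM (0.42, adjusted p = 0.574).

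Neighbouring members, between which genes outside the symbol rule can lie, did not share a direction throughout. In the run Ccl2, Ccl7, Ccl11, Ccl12, Ccl8 and Ccl1 the tested log2 fold changes were 0.93, 0.58, 0.05 and 0.13. In the run Ccl5, Ccl9, Ccl6, Ccl3 and Ccl4 they were 0.04, 0.83, 0.46 and -1.2. In the receptor run Cxcr6, Xcr1, Ccr1, Ccr1l1, Ccr3 and Ccr2 they were 1.77, 0.42, 1.1 and -0.62.

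Of the tested members 18 had groups that did not overlap, 11 with Null higher and 7 with Null lower, beside a background of 30.5% of all tested genes (16.2% higher and 14.3% lower). By class these were 9 of 21 ligands (4 higher, 5 lower), 7 of 10 receptors (5 higher, 2 lower) and both scavengers. In WT library 2, Cxcl1, Cxcr3 and Cxcr2 had 0 reads, and Ccr7 and Cxcr6 had 1 read each. That library's floor of 18.6 CPM exceeds at least 1 Null value of each of these genes, so their separation is not resolved. An unadjusted p under 0.05 was reached by 16 of the 33, with 25.1% of all tested genes as background.

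The other 26 members, 15 ligands, 9 receptors and 2 scavengers, did not have enough reads, and 1295 reads fell on them in all. Ccl20, the skin ligand of CCR6, and Ccl26, Ccl28 and Ccr8 had 0 reads among 54826585. Cxcr5, the follicular B cell receptor, had 324 reads, of which 191 were in WT library 3, and Xcl1, a ligand of cytotoxic lymphocytes, had 212. Ccl3 had 131 reads, Ccl11 107, Ccl27a 72, Cxcl13 63, Cxcl2 57, Cxcl11 39, Ccl1 31, Ccl19-ps1 18, Ccl19 11, Cxcl15 8 and Cxcl17 5. Ccr9 had 34 reads, Ccr3 33, Ccr10 15, Ccr1l1 9, Ccr4 8, Ccr6 2 and Cxcr1 1. Ccl27a shares 45% and Ccl19-ps1 46% of their 50-base stretches with other transcripts, so reads can be lost or split there.

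Genes of the pathway outside the symbol rule mostly did not pass. Of 10 chemokine-like proteins and atypical receptors 8 were tested and none passed. They include Mif at 209 and 191 CPM in WT and Null tumours and the platelet chemokine Pf4, at 105, 86 and 38.9 CPM in WT and 159, 130 and 154 CPM in Null libraries (log2 fold change 1.03, edgeR adjusted p = 0.0905). All 28 genes of signalling downstream of the receptors were tested, and 2 rose and 1 fell. Gnai1, an inhibitory G protein subunit, rose from 0.427 ± 0.395 to 6.84 ± 3.89 CPM (3.66, adjusted p = 0.0174), a call lost without Null library 1 (0.0639) and not tested without WT library 3 or Null libraries 2 or 3. Rgs18, a regulator of G protein signalling in blood cells, stood at 6.25, 6.14 and 5.87 CPM and at 39.6, 16.4 and 22.2 CPM and rose (2.04, adjusted p = 0.0186), a call lost without WT library 3 (0.119) or Null library 1 (0.0692). Grk3, a kinase that desensitises receptors, fell from 49.2 ± 7.71 to 15.8 ± 7.78 CPM (-1.57, adjusted p = 0.019), lost without WT library 3 (0.0872) and Null libraries 1 (0.0668) and 3 (0.0707, all edgeR).

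The G protein genes Cdc42 and Gnai2, the most highly read of the signalling list, stood at 436 and 592 CPM and at 439 and 383 CPM without passing (Cdc42 encodes a small GTPase of cell polarity). Of 23 inducing cytokines and signal genes 18 were tested and none passed. Irf1, an interferon-induced transcription factor, stood at 210 and 178 CPM, and the TNF receptor Tnfrsf1a at 158 and 194 CPM. Ifng, the inducer of Cxcl9 and Cxcl10, was too low for the test at 0.343 and 0.336 CPM, and Il17a had 0 reads. None of 7 tested proteases and sulphotransferases passed, among them Adam10, a sheddase of CX3CL1 and CXCL16, at 105 and 108 CPM, and Tpst2 at 120 and 80.7 CPM.

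**Figure D5:**
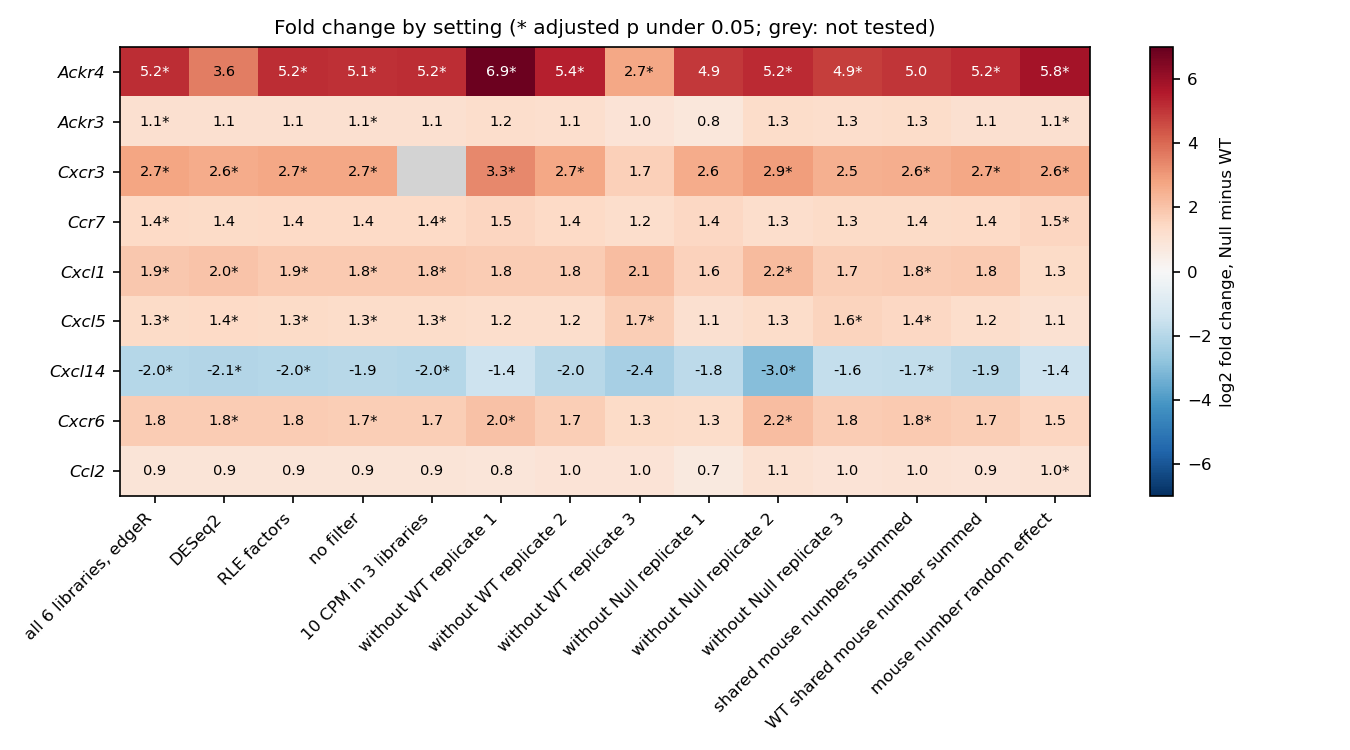
Log2 fold change (Null minus WT, colour and printed value) of 9 members, the 7 that passed and Cxcr6 and Ccl2, in the fit with all 6 libraries and in 13 alternative fits. Asterisks mark an adjusted p under 0.05, and each of the 7 calls keeps its sign in these fits and loses the threshold in some of them.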

How the data were processed

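Each library came with its own deposited table of raw counts, whole numbers of reads for each mouse Ensembl identifier, which the authors had not scaled. The submitters' processing notes name TopHat2, Cuffdiff, DESeq2 and mm9, without versions or roles. No label or header states how reads were counted, whether strand was used or which annotation served. Reads in no gene (4.63% to 12% of listed reads), ambiguous reads (1.72% to 2.11%) and reads with several alignments (32.9% to 40%) stayed out of library sizes and tests. Symbols and exon lengths came from GENCODE M21 (GRCm38), matched by identifier for 32919 of 37991 genes (86.6%), so that no coordinates of the count tables are given.

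Null and wild-type libraries were compared in R 4.3.3 with edgeR 4.0.16 (quasi-likelihood test, robust, TMM scaling, default expression filter, no covariate) and Benjamini-Hochberg adjustment at 0.05 over all 11887 tested genes. The SE was taken as the absolute log2 fold change over the square root of F. Simulated counts for these genes were drawn independently for each library, with a dispersion (spread beyond counting error) set to 0.1 for every gene. There 89% of 200 genes changed 4-fold were recovered, with 12 false calls. The spread of the real genes and any shared animals were not simulated, so this is not the sensitivity of the comparison. Alternatives used DESeq2 1.42.0, limma 3.58.1 (voom), other filters and scaling, summed libraries and libraries left out. Single values and sums got no test, because the smallest two-sided p of an exact permutation over 6 libraries is 0.1.

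Full values are given for members past the threshold, for scavengers, for the 5 tested ligands and 5 tested receptors with the highest mean CPM, and for partners of called members. The values of 1 tested receptor are not reported here, and it stays in the counts. Of pathway genes outside the symbol rule, those past the threshold and the 2 with the highest mean CPM in each list are named. Genes named beyond this were chosen after their values were seen. The members and lists were chosen with earlier results of these data known.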

Additional observations from a re-analysis of the deposited data

How the results depend on the processing

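No called member changed its sign in any alternative (90 values). Of 391 reported member values under alternatives, 324 kept their direction and side of the threshold, 49 kept the direction and lost the threshold, 8 kept the direction and gained it, and 10, all of members not called, changed sign. With 1 library left out, the log2 fold change ranged from -0.14 to 0.35 for Ccl8, from -0.16 to 0.57 for Cx3cl1, from -0.161 to 0.199 for Ccl12, from -0.0493 to 0.811 for Ccl6, from -0.52 to 0.47 for Ccl5 and from -0.18 to 0.72 for Cxcl3, and DESeq2 gave -0.0965 for Ccl5. The counts below are of all members that passed in a setting, not only of the 7 called with all libraries. Members called higher (6 with all libraries) numbered 2 with the WT pair of shared mouse number summed, and 0 to 4 with 1 library left out. Members called lower (1, the ligand Cxcl14) numbered 0 without a filter on low counts, with the WT pair summed and under a random effect for mouse number, and 0 to 1 with 1 library left out. Ligands called higher (2) numbered 0 with the WT pair summed, 1 with the random effect, which was Ccl2 and neither Cxcl1 nor Cxcl5, and 0 to 1 with 1 library left out. Receptors called higher (2) numbered 1 with RLE scaling and with the WT pair summed (Cxcr3 in both) and under a filter of 10 CPM in 3 libraries (Ccr7, with Cxcr3 not tested). With 1 library left out they numbered 0 to 3, and the 3 without WT library 1 were Cxcr3, Cxcr6 and Ccr1. Scavenger receptors called higher (2) numbered 0 in DESeq2 and with all libraries of a shared mouse number summed, 1 with RLE scaling, the 10 CPM filter and the WT pair summed (Ackr4 in each), and 0 to 1 with 1 library left out. Over all genes, the counts called higher and lower, 269 and 419 with all libraries, were 328 and 514 without a filter, 81 and 200 without WT library 3, 59 and 120 without Null library 1, and 641 and 515 with the random effect. No paired analysis was possible because the mouse numbers are not shared between the groups and the replicate numbers only follow accession order. Depth limits the low members most: in WT library 2, with 161711 assigned reads, a gene below 18.6 CPM can have no read.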
